A study of Mus musculus with 31 samples.

Results

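Aminoacyl-tRNA synthetase genes were examined for open chromatin in NIH-3T3 cells, an established mouse fibroblast line, in its parental form. ATAC-seq inserts adapters into accessible DNA with the Tn5 transposase, so that peaks mark open chromatin. The genes were taken by symbol from the mouse annotation, as 1 letter followed by "ars" with an optional 1 or 2, together with Eprs, Farsa, Farsb and the scaffold genes Aimp1, Aimp2 and Eef1e1. They numbered 40 of 21938 protein-coding genes, with 18 cytosolic enzymes or subunits, 17 mitochondrial enzymes, 2 enzymes of both compartments (Gars and Kars) and 3 scaffold proteins.

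The library was made from 50000 cells with 0.5 µM Tn5 and 12 PCR cycles as labelled, and the cells carried no transcription factor transgene. No doxycycline is named in its labels. The series had 31 samples, and the other 30, from NIH-3T3 lines that overexpressed 1 of 13 transcription factors or expressed rtTA3G alone, were not analysed here. With 1 library there were no replicates, so heights are given with exact 95% Poisson intervals, which cover counting error only, and genes were not treated as replicates.

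Aminoacyl-tRNA synthetases join each amino acid to its tRNA and so set the genetic code at every codon that is translated. Most amino acids have separate nuclear genes for the cytosolic and the mitochondrial enzyme, and both enzymes are made in the cytosol. In mammals several cytosolic enzymes and the scaffold proteins AIMP1, AIMP2 and EEF1E1 form the multisynthetase complex. When amino acids run short or proteins misfold, the transcription factor ATF4 binds C/EBP-ATF response elements and raises many cytosolic synthetase genes.

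All 40 genes had a peak within 1 kb of an annotated transcription start site (TSS), where 53.7% of all protein-coding genes had one. All 40 also had a peak that lay over a TSS, against 48.7% of protein-coding genes. A gene with a peak within 1 kb is called open from here on, so the open genes used for comparison include some with no peak over a TSS. The 40 genes used 39 peaks, since Hars and Hars2 shared 1. In 38 genes the start of the gene record itself was in the peak. The Aars record began 484 bp outside its peak and the Tars2 record 5141 bp outside, and in both genes the start of another transcript was covered.

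The promoters are shown first, since the motif matches of cytosolic and mitochondrial genes are read from them. Windows of 300 bases, 250 before and 50 after the RefSeq start in GRCm38.p6, were found for 30 of the 40 genes, of which 11 were cytosolic and 14 mitochondrial. The 5 windows printed here are those that held the C/EBP-ATF letters TGATGNAA on either strand, where N is any base. Capitals mark these letters or their reverse complement, the E-box CACGTG and the ETS letters CCGGAAG (or CTTCCGG). Each is written 5′ to 3′ in the direction of the gene.
Aars, chr8:111033592-111033891, plus strand: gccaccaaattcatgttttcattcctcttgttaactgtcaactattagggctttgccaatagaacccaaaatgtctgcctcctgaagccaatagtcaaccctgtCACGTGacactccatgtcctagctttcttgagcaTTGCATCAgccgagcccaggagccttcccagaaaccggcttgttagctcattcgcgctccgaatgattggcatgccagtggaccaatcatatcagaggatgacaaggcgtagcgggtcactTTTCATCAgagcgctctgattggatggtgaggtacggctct
Gars, chr6:55037751-55038050, plus strand: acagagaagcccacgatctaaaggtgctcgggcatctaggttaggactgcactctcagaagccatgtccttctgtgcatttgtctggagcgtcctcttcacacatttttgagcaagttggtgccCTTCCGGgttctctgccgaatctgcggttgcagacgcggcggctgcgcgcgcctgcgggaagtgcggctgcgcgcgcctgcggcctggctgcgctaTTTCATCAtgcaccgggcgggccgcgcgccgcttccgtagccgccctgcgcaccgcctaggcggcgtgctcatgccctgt
Iars, chr13:49681880-49682179, plus strand: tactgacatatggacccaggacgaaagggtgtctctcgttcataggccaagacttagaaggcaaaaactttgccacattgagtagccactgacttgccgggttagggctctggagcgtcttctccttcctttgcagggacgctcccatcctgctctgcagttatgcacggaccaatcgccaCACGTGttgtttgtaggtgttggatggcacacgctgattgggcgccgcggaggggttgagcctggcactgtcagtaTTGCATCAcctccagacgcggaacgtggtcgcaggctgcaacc
Tars, chr15:11399609-11399908, minus strand: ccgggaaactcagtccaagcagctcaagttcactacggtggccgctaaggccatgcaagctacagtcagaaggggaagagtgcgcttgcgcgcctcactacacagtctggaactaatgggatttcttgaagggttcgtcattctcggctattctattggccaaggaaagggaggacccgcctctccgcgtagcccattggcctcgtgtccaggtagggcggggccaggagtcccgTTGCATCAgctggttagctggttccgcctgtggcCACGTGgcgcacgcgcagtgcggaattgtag
Yars, chr4:129189653-129189952, plus strand: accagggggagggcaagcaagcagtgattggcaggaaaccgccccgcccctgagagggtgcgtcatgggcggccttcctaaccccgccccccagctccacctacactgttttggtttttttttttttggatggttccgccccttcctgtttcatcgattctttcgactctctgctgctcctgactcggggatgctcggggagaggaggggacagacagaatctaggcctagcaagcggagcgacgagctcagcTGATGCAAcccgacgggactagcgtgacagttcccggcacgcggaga

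The C/EBP-ATF letters were in 4 of 11 cytosolic promoters (Aars, Iars, Tars and Yars), in that of Gars, and in 0 of 14 mitochondrial promoters. Over all protein-coding genes 3.69% of the 17491 windows held them, and among the 9325 windows of open genes 2.20% did. None of 66 cytosolic and none of 69 mitochondrial ribosomal protein promoters held them. Positions are counted from the RefSeq start as 1, with -1 as the base before it. The letters began at positions -112 and 10 in Aars, -30 in Gars, 8 in Iars, -15 in Tars and 4 in Yars. Every one of these matches was inside the ATAC-seq peak, at 42.5 to 134.5 bp from its summit. With the stricter letters TGATGCAA, 4 promoters matched (Aars, Iars, Tars and Yars), against 0.558% of open promoters. With 11 and 14 windows these shares are descriptions, and no test was made of them.

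The E-box CACGTG, the core bound by MYC, USF and TFE3 family factors, was in 5 of the 30 promoters, against 10.3% of open promoters. Of these genes 4 were cytosolic (Aars, Farsb, Iars and Tars) and 1 mitochondrial (Ears2). Aars, Iars and Tars held both the E-box and the C/EBP-ATF letters. That pair was in 24 of the 9325 open promoters (0.257%). In Iars the E-box lay 13.5 bp from the peak summit, the closest of the 5.

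The core letters GCGCATGC of NRF1, nuclear respiratory factor 1, known for its part in nuclear genes of mitochondrial proteins, were in 3 of 14 mitochondrial promoters (21.4%) and in 0 of 11 cytosolic ones. Open promoters held them in 5.76% of cases and mitochondrial ribosomal protein promoters in 11.6%. These 3 windows are printed with that of Mars2, the gene with the most fragments at its promoter peak summit. Capitals mark the NRF1 core (or GCATGCGC) and the ETS letters.
Rars2, chr4:34614707-34615006, plus strand: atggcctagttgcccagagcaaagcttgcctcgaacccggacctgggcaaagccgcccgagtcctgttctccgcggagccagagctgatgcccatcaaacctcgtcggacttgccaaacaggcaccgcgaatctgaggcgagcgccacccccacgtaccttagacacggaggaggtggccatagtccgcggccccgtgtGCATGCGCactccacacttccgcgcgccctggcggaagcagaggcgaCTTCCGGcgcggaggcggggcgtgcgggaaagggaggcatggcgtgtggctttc
Vars2, chr17:35667543-35667842, minus strand: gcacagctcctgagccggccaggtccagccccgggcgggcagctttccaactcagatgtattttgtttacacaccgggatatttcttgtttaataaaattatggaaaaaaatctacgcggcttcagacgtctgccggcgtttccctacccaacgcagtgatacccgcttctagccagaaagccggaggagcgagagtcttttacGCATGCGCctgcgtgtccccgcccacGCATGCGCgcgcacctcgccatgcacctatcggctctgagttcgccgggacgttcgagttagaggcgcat
Wars2, chr3:99140840-99141139, plus strand: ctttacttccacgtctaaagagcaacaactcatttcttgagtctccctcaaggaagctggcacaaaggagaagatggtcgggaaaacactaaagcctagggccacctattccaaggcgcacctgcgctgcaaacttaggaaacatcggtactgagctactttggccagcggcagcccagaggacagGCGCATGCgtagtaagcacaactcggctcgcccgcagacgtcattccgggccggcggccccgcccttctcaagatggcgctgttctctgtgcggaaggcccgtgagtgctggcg
Mars2, chr1:55236927-55237226, plus strand: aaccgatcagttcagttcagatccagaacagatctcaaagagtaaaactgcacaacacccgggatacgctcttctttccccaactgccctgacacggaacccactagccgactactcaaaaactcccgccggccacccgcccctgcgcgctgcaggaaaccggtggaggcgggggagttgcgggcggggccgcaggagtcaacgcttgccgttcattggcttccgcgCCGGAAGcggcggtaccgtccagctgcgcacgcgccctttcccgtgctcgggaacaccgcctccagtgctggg

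Vars2 held the NRF1 core at 2 places, the nearer 21.5 bp from the summit. The Rars2 and Vars2 peaks were also near a start of another coding gene (Orc3 and Gtf2h4), so the core cannot be assigned to either gene alone. In Wars2 the core was 336.5 bp from the summit, which lay 201 bp downstream of the nearest annotated start. The ETS letters were in 10 of the 30 promoters (33.3%), against 19.1% of open promoters, 37.9% of cytosolic ribosomal protein promoters and 36.2% of mitochondrial ones. The 10 were spread over cytosolic (Farsa, Mars and Sars), mitochondrial (Cars2, Mars2, Rars2 and Sars2), shared (Gars and Kars) and scaffold (Aimp2) genes.

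The YY1 letters AAGATGG were in 5 of the 30 promoters (16.7%), against 7.52% of open promoters and 18.8% of mitochondrial ribosomal protein promoters. They were in 3 of 14 mitochondrial promoters (Aars2, Wars2 and Yars2, 21.4%), in 1 of 11 cytosolic ones (Farsa) and in Eef1e1.

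The CCAAT box was in 16 of 30 promoters (53.3%, open promoters 39.9%) and the GC box GGGCGG in 21 (70%, open promoters 65.4%). The TATA letters TATAAA were in 3 promoters (10%, open promoters 7.10%), at -212 in Aars2, -239 in Farsa and -202 in Tars2, outside the peaks. Only the Farsa match read TATAAA in the direction of the gene, and those of Aars2 and Tars2 were on the opposite strand. The BANP core TCGCGAGA was found in Dars alone (open promoters 2.55%) and the AP-1 letters TGACTCA in Qars alone (open promoters 3.57%). The cAMP response element TGACGTCA and the ZNF143 letters ACTACAA were in 0 of the 30 windows. Open promoters held them in 3.53% and 4.71% of cases. With 30 windows, counts this low do not set these genes apart from open promoters. The median ratio of observed to expected CpG was 0.749, close to the 0.778 of open promoters and above the 0.576 of all protein-coding promoters.

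**Figure D1:**
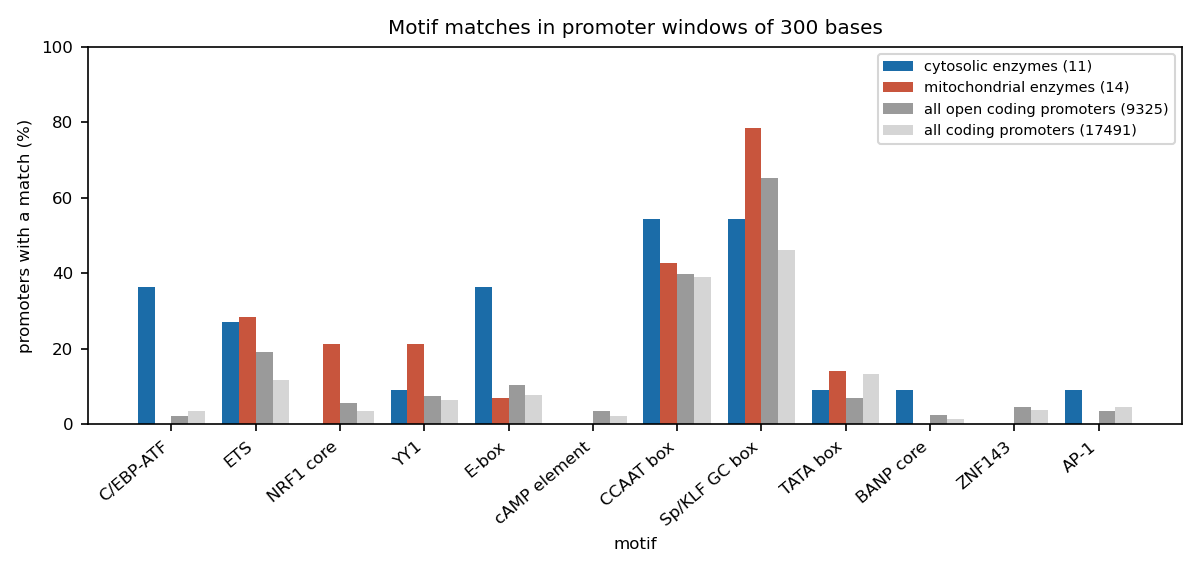
Share of promoter windows with each motif (vertical axis, % of windows) for cytosolic and mitochondrial enzyme genes, all open coding genes and all coding genes. C/EBP-ATF letters were in 36.4% of the 11 cytosolic and 0% of the 14 mitochondrial windows, and the NRF1 core in 0% and 21.4%.

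The height of a promoter peak was read as the number of fragments over its summit, and as fold enrichment, which is fragments plus 1 over the locally expected number plus 1. The 40 genes had 42 to 151 fragments with a median of 70.5 (quartiles 61.3 and 87.8), where all open coding genes had a median of 64 (quartiles 42 and 89). Median fold enrichment was 11.6, against 9.86 over all open coding genes, and 30 of the 40 genes were above that value. Cytosolic ribosomal protein genes, of which 82 of 84 were open, had a median of 9.46, and mitochondrial ribosomal protein genes, of which 78 of 78 were open, 10.8. The median width was 862.5 bp, against 796 bp.

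**Figure D2:**
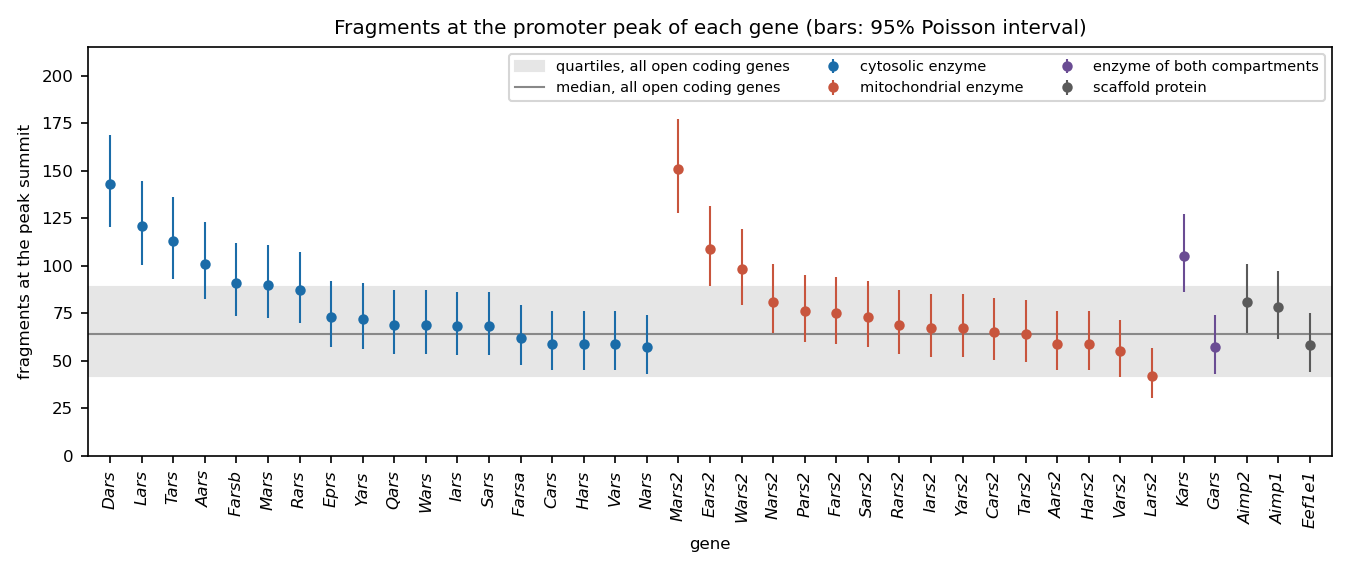
Fragments at the summit of the promoter peak (vertical axis) for 39 of the genes, with bars for the 95% Poisson interval, beside the median and quartiles of all open coding genes. Values run from 42 in Lars2 to 151 in Mars2, and 27 of the 39 are above the median of 64.

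The median fold enrichment was 11.6 over the 18 cytosolic genes (range 7.27 to 17.0) and 11.4 over the 17 mitochondrial genes (range 7.93 to 15.9). The median number of fragments was 70.5 and 69, and the median width 802.5 and 785 bp. The ranges overlapped widely on each of these scales. Without genes whose peak was also near another coding gene, the median fold enrichments were 11.7 over 15 cytosolic and 10.1 over 10 mitochondrial genes, a difference of 1.59 in place of 0.194. In −log10 q the difference had the other sign, at -1.39. Class I and class II enzymes, which differ in the fold of the catalytic domain, had median fold enrichments of 11.3 and 11.7 over 18 genes each.

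Among cytosolic enzymes the highest fold enrichment was that of Lars (leucine), at 17.0 with 121 fragments (interval 100.4 to 145). Iars (isoleucine) followed at 15.5 with 68 fragments (interval 52.8 to 86.2), over a peak at chr13:49681761-49682383. Tars (threonine) was at 14.1 with 113 fragments (interval 93.1 to 136), at chr15:11399401-11400048. Iars thus had a higher fold than Tars on fewer fragments, since the expected number at its summit was 3.45 against 7.07. The lowest were Rars (arginine) at 7.27 with 87 fragments (interval 69.7 to 107), Vars (valine) at 7.85 with 59 (interval 44.9 to 76.1) and Yars (tyrosine) at 8.28 with 72 (interval 56.3 to 90.7). Their peaks were at chr11:35834285-35834815, chr17:35000623-35001670 and chr4:129188775-129190358. The Rars summit had more fragments than Iars, over an expected number of 11.1, the highest of the 40 genes. By fragments, Dars (aspartate) led the cytosolic genes with 143 (interval 121 to 168) at chr1:128416630-128417834.

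Among mitochondrial enzymes the highest fold enrichments were those of Nars2 (asparagine) at 15.9 with 81 fragments (interval 64.3 to 101), Rars2 (arginine) at 15.4 with 69 (interval 53.7 to 87.3) and Wars2 (tryptophan) at 15.3 with 98 (interval 79.6 to 119). Their peaks were at chr7:96951241-96951908, chr4:34614629-34615401 and chr3:99140798-99141742. The lowest were Vars2 (valine) at 7.93 with 55 fragments (interval 41.4 to 71.6), Cars2 (cysteine) at 8.57 with 65 (interval 50.2 to 82.8) and Aars2 (alanine) at 9.09 with 59 (interval 44.9 to 76.1). These peaks were at chr17:35667405-35667945, chr8:11550392-11550942 and chr17:45506727-45507202. Mars2, which charges mitochondrial initiator and elongator tRNAs for methionine, had the most fragments, 151 (interval 128 to 177), at chr1:55236833-55238133. Lars2 (leucine) had the fewest, 42 (interval 30.3 to 56.8), at chr9:123366600-123367195. The remaining enzymes of either compartment lay between 57 and 109 fragments.

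Of the enzymes of both compartments, Kars (lysine) had a fold enrichment of 15.8 with 105 fragments (interval 85.9 to 127) at chr8:112010983-112012227. Gars (glycine) had 9.54 with 57 fragments (interval 43.2 to 73.9) at chr6:55037624-55038688, so that the intervals of the pair were apart. The scaffold genes reached 16.6 with 78 fragments (interval 61.7 to 97.3) in Aimp1, 12.0 with 81 (interval 64.3 to 101) in Aimp2 and 11.1 with 58 (interval 44.0 to 74.98) in Eef1e1. Their peaks were at chr3:132683627-132684512, chr5:143909325-143910272 and chr13:38658501-38659383. The 11 genes of the multisynthetase complex had a median of 81 fragments and a fold of 12.1. The 11 cytosolic enzymes outside it had 68 fragments and a fold of 11.6.

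The cytosolic and the mitochondrial gene were compared for 13 amino acids with 1 gene taken by the symbol rule in each compartment. In 12 of these pairs each gene had its own peak. Tarsl2, which the symbol rule leaves out, was not counted for threonine and had 83 fragments. The cytosolic gene had more fragments in 7 pairs and the mitochondrial gene in 5, with a median ratio of 1.04. Intervals were apart in 4 pairs. The cytosolic gene was higher for leucine (121 fragments in Lars, 42 in Lars2), threonine (113 in Tars, 64 in Tars2) and alanine (101 in Aars, 59 in Aars2). Methionine went the other way, with 90 fragments in Mars and 151 in Mars2. By fold enrichment the cytosolic gene was higher in 5 pairs and the mitochondrial gene in 7.

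**Figure D3:**
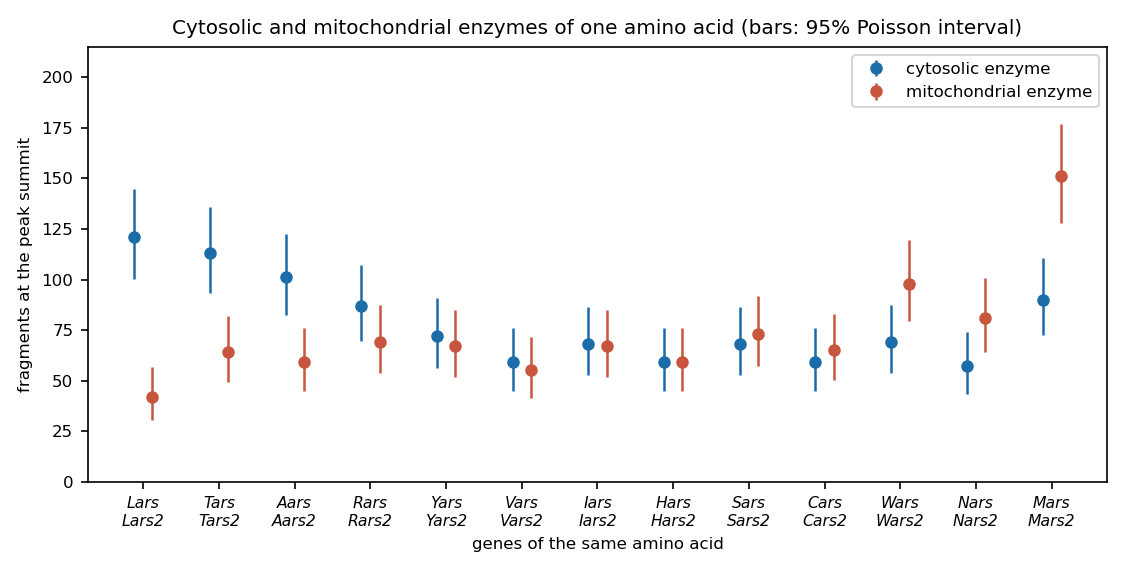
Fragments at the promoter peak summit (vertical axis) of the cytosolic and the mitochondrial gene for each of 13 amino acids, with bars for the 95% Poisson interval. The bars are apart for Lars, Tars and Aars, which are above their partners, and for Mars, which is below Mars2, while Hars and Hars2 share 1 peak.

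Summits lay close to annotated starts. The median distance to the nearest start was 23 bp, against 69 bp over open coding genes, and 32 of 40 summits (80%) were within 100 bp, against 61.7%. The summit was upstream of that start in 25 genes. The farthest were Sars2 (229 bp), Aars2 (226 bp) and Wars2 (201 bp), all downstream and all mitochondrial. These distances are to the nearest of all annotated transcript starts, so they depend on how many starts a gene has. The number of starts was not matched to that of open coding genes. Nor were open coding genes limited to those with a peak over a TSS, which all 40 genes had. From the RefSeq start, in the 30 genes with a window, the median distance was 58.5 bp and the largest 489 bp, in Aimp1. Yars had the widest peak at 1584 bp and Nars the narrowest at 445 bp. A further peak within 1 kb of any annotated transcript start, including starts under the first peak, was found in 3 genes (7.5%, open coding genes 24.1%). These peaks were low, with 13 fragments in Kars, 27 in Sars and 15 in Yars.

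**Figure D4:**
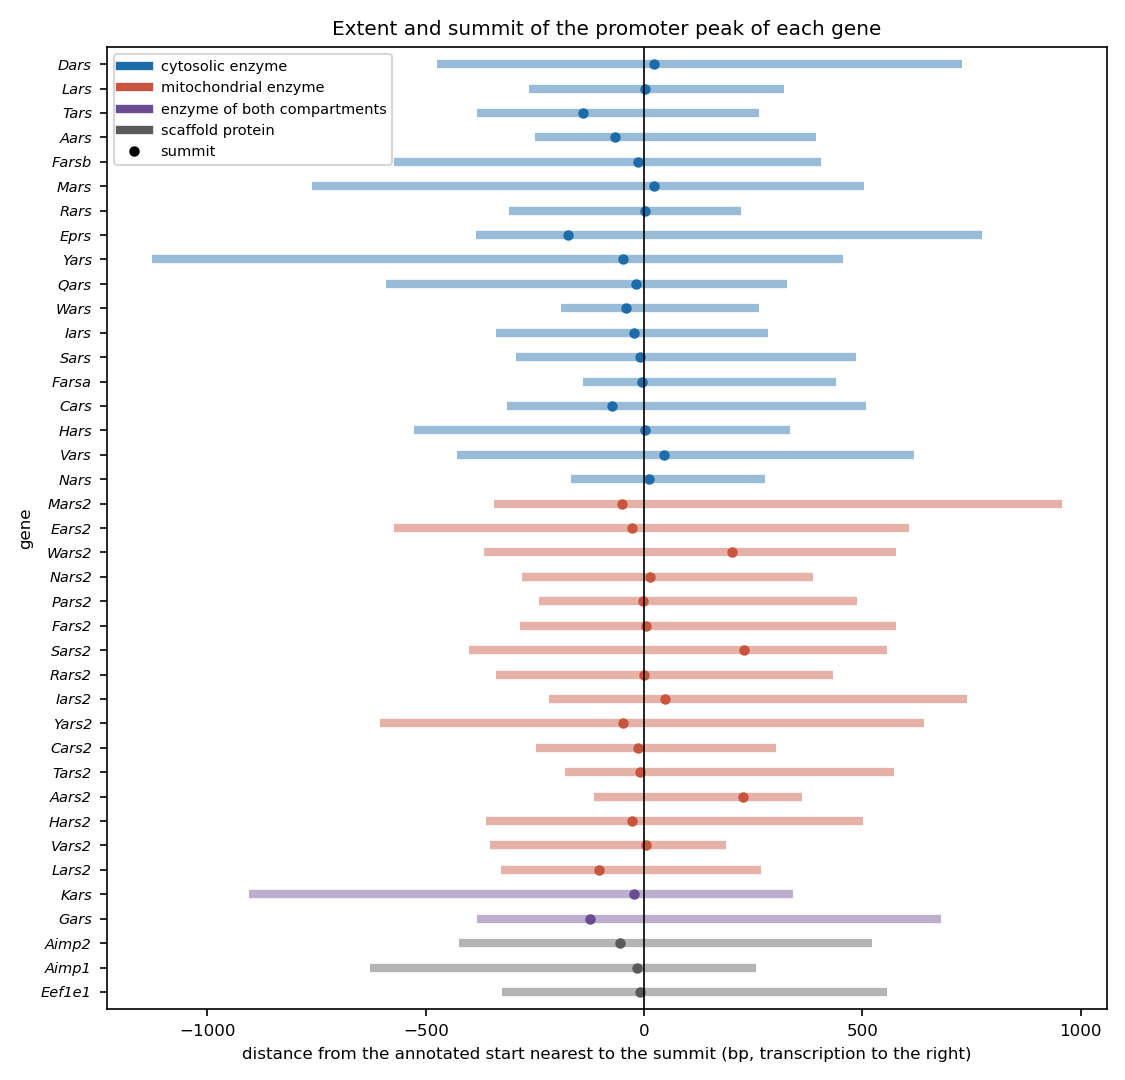
Extent (bars) and summit (points) of the promoter peak of 39 of the genes, by distance in bp from the annotated start nearest to the summit, with transcription to the right. Summits fall within 229 bp of a start, and the Yars peak is the widest at 1584 bp.

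Many of these promoters were shared with a gene on the other strand. A protein-coding gene began head to head within 1 kb of 12 of the 40 genes (30%), against 19.7% of open coding genes. The share was 6 of 17 for mitochondrial enzymes (35.3%) and 3 of 18 for cytosolic enzymes (16.7%). Among mitochondrial ribosomal protein genes it was 42.3% and among cytosolic ones 21.4%. Distances here and below are between the closest annotated transcript starts of each pair, so gene records can overlap where these starts do not. Hars and Hars2, the cytosolic and the mitochondrial histidine enzyme, had starts 26 bp apart, while their gene records overlapped. Both had the same peak of 59 fragments (interval 44.9 to 76.1) with a fold of 11.4, which cannot be divided between them.

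The partners of mitochondrial enzymes included genes of mitochondrial and of nuclear function. Sars2 began 172 bp from Mrps12, a mitochondrial ribosomal protein, and Fars2 faced Lyrm4, a factor of iron-sulfur cluster assembly, with starts that overlapped (-114 bp). Rars2 began 13 bp from Orc3, of the origin recognition complex. Ears2 and Ubfd1 overlapped (-55 bp). The shared peak of Ears2 had 109 fragments (interval 89.5 to 131) and a fold of 14.4, at chr7:122066657-122067835. That of Fars2 had 75 fragments (interval 59.0 to 94.0) and a fold of 13.2, at chr13:36117127-36117988. That of Sars2 had 73 (interval 57.2 to 91.8) and a fold of 11.7, at chr7:28741607-28742565. Among the others, Kars began 75 bp from Terf2ip, a telomere protein, Wars 98 bp from Wdr25, Yars 33 bp from S100pbp, Aimp1 20 bp from Tbck and Aimp2 117 bp from Pms2, a DNA mismatch repair gene. The Wars peak had 69 fragments (interval 53.7 to 87.3) and a fold of 12.8, at chr12:108893912-108894365. The Vars2 peak was also near a start of Gtf2h4, a subunit of TFIIH. In such genes the fragments of the gene and of its neighbour cannot be told apart.

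Away from starts, 42 further peaks lay inside the genes or within 10 kb of them and more than 1 kb from any TSS. They belonged to 15 genes, and the other 25 had none. The same share of all protein-coding genes is not given here, so 15 is not read as many or few. Their median was 24.5 fragments, against 25 over all 47192 peaks of this kind. Fars2, which spans 608869 bp, had 10, and Farsb had 5. A total of 15 of the 42 (35.7%) held the AP-1 letters TGACTCA within 50 bases of the summit, against 26.4% of all such peaks. Among them were a peak inside Dars at chr1:128398809-128399543 with 119 fragments and one inside Eprs at chr1:185376341-185376743 with 76. The Eprs promoter had 73. A further peak with the letters, outside Rars, had 102 fragments, against 87 at the Rars promoter. Peaks without the letters were also higher than the promoter of their gene. These had 118 and 95 fragments in Farsb (promoter 91), 106 in Fars2 (promoter 75) and 106 in Yars (promoter 72). Others had 92 outside Rars and 337 in Lars2 (promoter 42).

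The highest of the 42 was inside Lars2 at chr9:123461819-123462183, with its summit 95066 bp downstream of the gene's start. It had 337 fragments and a fold enrichment of 37.5, where the Lars2 promoter had 42 fragments and 9.86. Its 365 bases had 8 other places in GRCm38.p6 with at least 90% identity over at least 100 bases, the longest of them 226 bases. Whether reads from such places contributed to the height was not tested.

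**Figure D5:**
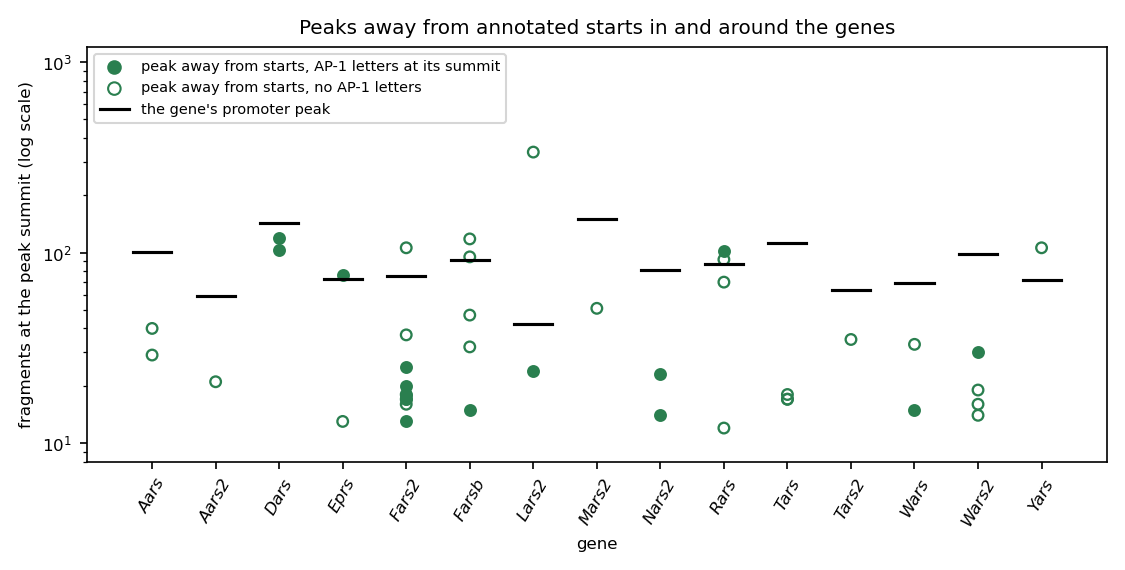
Fragments at the summit (log scale) of the 42 peaks away from annotated starts in and around 15 of the genes (circles, filled where the AP-1 letters were within 50 bases of the summit), with a line for each gene's promoter peak. The peak inside Lars2, at 337 fragments, is above every promoter peak shown.

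Of 18 other genes of tRNA charging and its control, 17 were open. The highest was Trnt1, which adds the CCA end to tRNAs, with a fold of 16.0 and 110 fragments. Atf4 had 8.09 with 89 fragments and Eif2ak4, the kinase GCN2 that senses uncharged tRNA, 12.9 with 102. The lowest were Mtfmt, which formylates mitochondrial initiator tRNA, at 4.89 with 20 fragments, Aarsd1 at 5.83 with 38 and Gatc, a subunit of mitochondrial glutamyl-tRNA amidotransferase, at 6.19 with 29. Prorsd1 had no peak. The median fold was 11.2, close to the 11.6 of the synthetase genes.

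The list held 63456 peaks with a median of 29 fragments at the summit and a lowest of 10. Fibroblast markers were open in 10 of 10 cases, and 9 had a peak over a TSS. Their fragments ran from 12 in Thy1 and 22 in Prrx1 to 117 in Fn1. The median fold was 6.47, below the 9.86 of all open coding genes. Epithelial markers were open in 1 of 6 and blood markers in 1 of 5, in each case with a weak peak (22 fragments at Krt8, 18 at Spi1) that lay over no TSS. Endothelial markers were open in 3 of 4, with 114 fragments at Cdh5, 62 at Pecam1 and 13 at Tek, and 1 of them had a peak over a TSS. The Cdh5, Pecam1 and Pdgfra peaks lay inside the gene record, more than 1 kb from either end, and the Thy1 peak lay past its end. These markers were thus counted as open through starts of other transcripts.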

How the data were processed

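The data were the ATAC-seq peak list of 1 parental NIH-3T3 library, and no samples were compared. Alignment by the authors was to mm10 with STAR 2.5.3a and kept reads with a unique position. Picard removed duplicates, and MACS2 2.1.1.20160309 called the peaks from read pairs. Tool versions are from the submitters' processing notes. The deposited values per peak are a fold enrichment (the ratio of summit fragments to the local expectation, each plus 1), −log10 p and −log10 q, and a score that repeats the −log10 q. The methods describe doxycycline for NIH-3T3 cells in ATAC-seq, while the labels of the parental line list none.

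Summit fragments were solved from the deposited fold enrichment and −log10 p. They were whole within 0.02 for all but 2 of 63456 peaks, and the calculation was tested on simulated data. Duplicate removal means that intervals cover distinct fragments, but the total number of reads is not given in the sources used here. A peak belonged to a gene when within 1 kb of the start of any GENCODE M21 transcript, and the peak with the highest fold enrichment was taken. Promoter sequences, 300 bases each, are those of RefSeq (GRCm38.p6), with the first listed start per gene, and 12 motifs were searched on both strands. Overlaps between motifs were allowed. The highest Lars2 gene body peak was compared with the assembly with BLAST 2.17.0. Calculations used Python 3.11.15, pandas 2.3.3, SciPy 1.17.1 and pysam 0.24.0.

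The genes, lists and motifs were chosen with earlier results of these data known. Compartments and complex membership are textbook assignments. Fold enrichment, fragments and intervals are given for the 3 highest and 3 lowest cytosolic and mitochondrial enzymes by fold enrichment, for Gars, Kars and the scaffold genes, and for the named genes with shared peaks, with positions where printed. Other genes were named after their values were seen. A gene included in the counts and medians is not reported here by name, in the plots or in the pairs.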

Additional observations from a re-analysis of the deposited data

How the results depend on the processing

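The number of open genes, both compartment medians, their difference and the count of C/EBP-ATF letters were recomputed in 38 combinations of result and alternative. In 36 the medians stayed within the 95% order-statistic interval of the reported median, or the count within 1.5 times. TSS overlap, 500 bp, q of 1e-05 and fold of 5 could not change the results. Every peak taken lay over a TSS, with fold of at least 7.27 and −log10 q of at least 28.7. The 36 is thus no measure of stability, and it includes a shift of the difference from 0.194 to 1.59. The other 2 put the difference on another scale. The difference of cytosolic minus mitochondrial medians was 0.194 in fold enrichment, 1.5 in summit fragments and -1.39 in −log10 q, so that its sign depends on the scale. Without genes whose peak was also near another gene, it was 1.59 (15 cytosolic and 10 mitochondrial genes), and with gene record starts alone 0.034. With gene record starts alone, 39 genes were open. The stricter C/EBP-ATF letters and every listed start, both chosen after seeing the data, gave 4 and 5 promoters. No paired analysis was possible because the data hold 1 library and no groups to compare. Depth limits single genes: at 42 to 151 fragments the 95% intervals of neighbours in the order of heights overlapped.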
